A study of Mus musculus with 13 samples.

Results

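Cry1, Cry2 and Bhlhe40 encode repressors of the circadian clock's main activator outside the Period family. They were taken as every probe set that the annotation of the array assigns to these 3 genes, which gave 5 of 12422 probe sets and 3 of 8251 annotated genes. Cry1 had 3 probe sets (94420_f_at, 94421_r_at and 161225_r_at), Cry2 had 1 (97724_at) and Bhlhe40 had 1 (104701_at). The samples were aortae of C57BL/6 mice (c57/Bl6 in the labels), an inbred strain with no further genotype or treatment stated. All mice were entrained for 2 weeks to days of 12 h light and 12 h dark, and were then kept 36 h without light. Aortae were collected every 4 h over 48 h, at circadian times (CT) 18 to 62. Each of the 12 collections was 1 pool of 6 aortae, so nothing can be said of single animals. CT18 was hybridised to a pair of arrays, which were averaged as 1 pool because the labels do not state whether their RNA differed. The sources used here give no age or sex of the mice.

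In constant darkness, CT0 to CT12 is called subjective day and CT12 to CT24 subjective night, after the animal's own clock. The series therefore held 6 pools of subjective night (hours 14, 18 and 22 of the cycle) and 6 of subjective day (hours 2, 6 and 10), and each hour was sampled once in the second cycle (CT42 to CT62) and once in the first (CT18 to CT38). The night pools of either cycle come from 2 subjective nights, and 3 nights were sampled in all.

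CLOCK and BMAL1 (gene symbol Arntl) bind DNA as a pair at E-boxes and switch on, among others, the Period and Cryptochrome genes. The cryptochrome proteins CRY1 and CRY2 enter the nucleus with PER proteins and silence CLOCK and BMAL1, which closes the loop. In the mouse, loss of CRY1 shortens the behavioural period and loss of CRY2 lengthens it. BHLHE40, also called DEC1, is a basic helix-loop-helix repressor that itself binds E-boxes and competes with CLOCK and BMAL1 there. Its gene is also switched on by low oxygen and by cytokine and serum signals. In many mouse tissues Cry1 transcripts peak later than those of the Period genes.

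The E-box letters in the start regions of the cryptochrome genes are shown because both genes are described as targets of the complex that their products silence. In assembly GRCm38.p6, Cry1 occupies chromosome 10 from 85131700 to 85185054, Cry2 chromosome 2 from 92403646 to 92434085, and Bhlhe40 chromosome 6 from 108660629 to 108666925. RefSeq start regions of 250 bases before and 50 after the annotated start were matched by symbol for 2 of the 3 genes, Cry1 (chr10:85185005-85185304, minus strand) and Cry2 (chr2:92434020-92434319, minus strand). Capitals mark the E-box CACGTG and the E-prime box CACGTT, which reads AACGTG on the opposite strand.
Cry1: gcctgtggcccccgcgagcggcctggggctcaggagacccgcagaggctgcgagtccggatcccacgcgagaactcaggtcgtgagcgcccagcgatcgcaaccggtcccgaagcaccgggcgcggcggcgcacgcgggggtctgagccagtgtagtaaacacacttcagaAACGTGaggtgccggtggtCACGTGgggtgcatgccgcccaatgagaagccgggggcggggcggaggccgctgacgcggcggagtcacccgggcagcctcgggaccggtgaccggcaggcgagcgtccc
Cry2: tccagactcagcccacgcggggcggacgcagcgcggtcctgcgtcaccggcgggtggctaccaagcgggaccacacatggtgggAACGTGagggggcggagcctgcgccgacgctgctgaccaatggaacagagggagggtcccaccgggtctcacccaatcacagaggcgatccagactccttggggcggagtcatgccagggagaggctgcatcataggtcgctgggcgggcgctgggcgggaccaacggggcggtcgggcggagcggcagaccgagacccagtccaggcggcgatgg
The Cry1 window held 1 E-box, whose first base lies 60 bases before the start, and 1 E-prime box, 79 bases before it, with no overlap between them. The Cry2 window held 1 E-prime box, 166 bases before the start, and no CACGTG. Of 32851 RefSeq windows of this length, 7.15% held CACGTG and 4.69% held CACGTT on either strand. Neither window held the D-box TTATGTAA (in 0.938% of windows) or the ROR element cores TAGGTCA (2.61%) and TGGGTCA (3.98%), each searched on both strands. These matches describe letters in a window and were not set against binding data.

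The intensities were linear, already scaled by the authors and partly negative. Intensities under 36.7 were raised to that floor before log2 was taken, and probe sets with a mean log2 level at or above 5.60 were kept, which left 7453. Each of the 3 genes kept 1 probe set. The pools lay within a median correlation of 0.892 to 0.930 with the other pools, lowest for CT46 (0.892) and next for CT30 (0.908). The summed smooth muscle markers (5 of 7 listed were kept) ran from 9043 to 14394 over the pools. Endothelial markers (7 of 7) ran from 1457 to 2781, those of brown and white fat (7 of 9) from 35539 to 45563, and those of red blood cells (3 of 5) from 7054 to 12316. Markers of neighbouring tissues varied more: skeletal muscle (12 of 12) ran from 6156 at CT54 to 31759 at CT34, thymocytes (8 of 12) from 662 at CT42 to 4563 at CT54, and cardiac atrium (7 of 8) from 4545 at CT30 to 14561 at CT42. No kept marker was at the floor in all pools.

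Cry1 transcripts followed the cycle of subjective night and day. On 94420_f_at the intensity was 344 at CT18, 394 at CT22, 235 at CT26, 179 at CT30, 154 at CT34 and 339 at CT38. In the next cycle it was 365 at CT42, 312 at CT46, 142 at CT50, 169 at CT54, 196 at CT58 and 282 at CT62. Levels were high in the pools of all 3 subjective nights sampled and low in those of both subjective days, and every pool was at least 3.86-fold above the floor. The highest pool, CT22, was 2.78-fold above the lowest, CT50. The pair of CT18 arrays read 331 and 356, so arrays of that time point differed 1.08-fold.

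**Figure D1:**
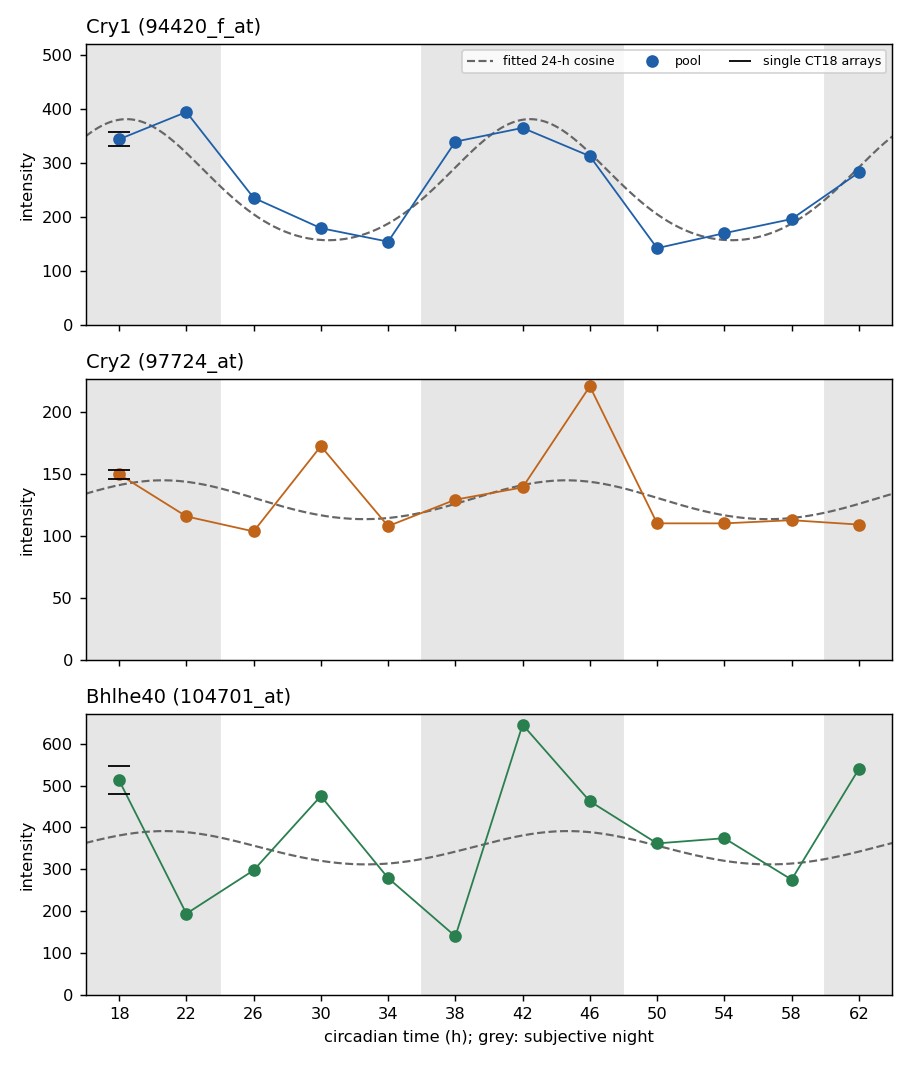
Intensity (linear scale, vertical axis) of Cry1, Cry2 and Bhlhe40 against circadian time in hours. Points are pools, short black bars the single CT18 arrays, dashed lines the fitted 24-h cosine, and grey bands subjective night. Cry1 follows the curve through both cycles, while Cry2 is raised at CT30 (172) and CT46 (221) and Bhlhe40 dips at CT22 (194) and CT38 (139.8).

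The comparison of subjective night with subjective day asks whether a transcript differs with the phase of the animal's own clock. Cry1 averaged 339 ± 39.2 in subjective night and 179 ± 33.2 in subjective day (SD, n = 6 pools each). Night pools ran from 282 to 394 with a median of 341, and day pools from 142 to 235 with a median of 174, so the groups did not overlap. Such a separation with night higher was seen in 26 of 7453 probe sets (0.349%). In a bulk sample, a change in the number of cells that express a gene and a change in its RNA per cell cannot be told apart. Night minus day was 0.93 ± 0.14 (log2, SE), a 1.91-fold difference with a 95% confidence interval of 1.56 to 2.34. The limma test, adjusted by the Benjamini-Hochberg method over all 7453 probe sets, gave 0.0131, and Cry1 had the 5th smallest p. It was 1 of 4 probe sets called higher at night (0.0537% of those tested), among 10 called in either direction (0.134%), or 3 to 18 with any 1 pool left out. The other 3 called higher were the chaperone genes Hspa8, Hsph1 and Hsp90aa1, named here after their values were seen. At an unadjusted p below 0.05, Cry1 was 1 of 3 members and 8.91% of all probe sets passed.

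The night minus day difference of Cry1 was of like size in each cycle. Separation of its night and day pools within a cycle follows from that over all pools and adds no support. In the second cycle its geometric mean was 318 at night and 167 by day, a 1.90-fold difference. In the first cycle it was 358 at night and 186 by day, a 1.92-fold difference (n = 3 pools each). Night pools ran from 282 to 365 and day pools from 142 to 196 in the second cycle, against 339 to 394 and 154 to 235 in the first. Atrial markers summed to 4864 to 14561 in night pools and 4545 to 7656 in day pools, and these ranges overlapped. Of the 7 atrial markers kept, 7 had a higher mean at night, against 54.3% of all genes kept, with 0 called, and Cry1 had a correlation of 0.52 with their mean over the 12 pools. With the skeletal muscle, thymocyte and atrial marker means as covariates, night minus day was 0.96 ± 0.18 but no longer passed (limma, adjusted p = 0.105), and without CT38 and CT42, the pools highest in atrial markers, it was 0.90 ± 0.17 (adjusted p = 0.0885). The call was also lost without CT18 (0.93 ± 0.15, limma adjusted p = 0.0523), with no filter on dim probe sets (0.0605) and without moderation of the variance (0.0688).

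**Figure D2:**
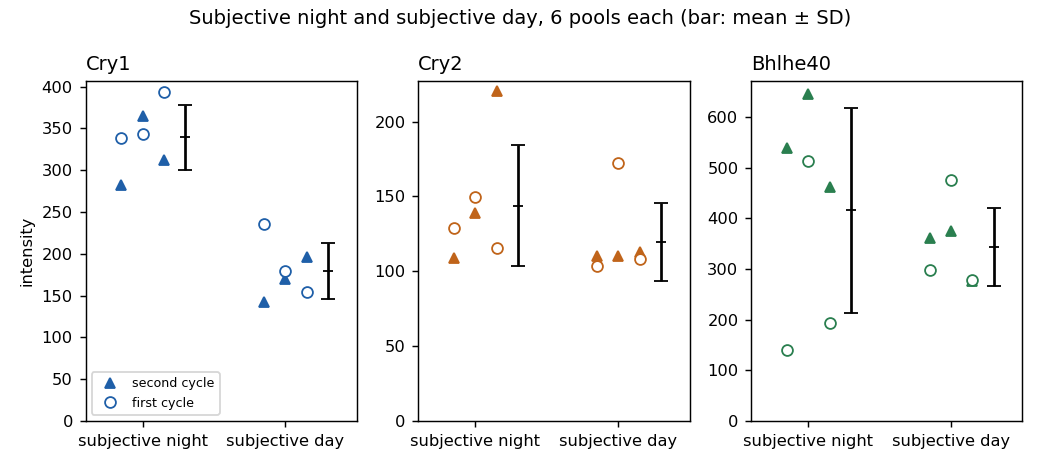
Intensity (linear scale) of the 3 genes in subjective night and subjective day, with filled triangles for second-cycle pools and open circles for first-cycle pools. Within each group points run from left to right in order of the hour of the cycle, and bars give the mean ± SD of 6 pools. Cry1 night pools (282 to 394) lie above all day pools (142 to 235), and the groups of Cry2 and Bhlhe40 overlap.

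Cry2 and Bhlhe40 were not called in the same comparison. Cry2 averaged 144 ± 40.4 in subjective night and 119 ± 26.1 in subjective day (SD, n = 6 pools each). Night pools ran from 109 to 221 with a median of 134, and day pools from 104 to 172 with a median of 110.1, so the groups overlapped. Night minus day was 0.25 ± 0.19 (log2, SE; limma, adjusted p = 0.747), and the 95% confidence interval of the ratio was 0.892 to 1.59. Without CT46, the highest pool of Cry2, night minus day was 0.12 ± 0.17. Without CT30, the next highest, it was 0.36 ± 0.18 (limma, adjusted p = 0.385). Bhlhe40 averaged 416 ± 202 in subjective night and 344 ± 76.8 in subjective day (SD, n = 6 each). Its night pools, from 139.8 to 645 with a median of 487, spanned the whole range of its day pools, from 275 to 475 with a median of 329.6. Night minus day was 0.10 ± 0.34 (adjusted p = 0.953), with an interval of the ratio of 0.645 to 1.78, which includes differences nearly as large as that of Cry1. Leaving out 1 pool moved this value to between -0.066 (without CT42) and 0.38 (without CT38), and with the tissue marker means as covariates it was 0.40 ± 0.44 (adjusted p = 0.770). By cycle, night minus day of Bhlhe40 was 0.70 in the second and -0.50 in the first (log2, n = 3 pools each, no test). Its night pools (462 to 645) lay above its day pools (275 to 374) in the second cycle. In the first they ran from 139.8 to 512 and overlapped the day pools (279 to 475). How many probe sets separate 3 pools from 3 was not counted. For Cry2, night minus day was 0.43 in the second cycle and 0.07 in the first, with overlapping pools in both.

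Whether Cry1 differed from the other genes was tested on the difference of log2 profiles over the pools, within arrays, for 3 pairs of genes. The night minus day contrast of Cry1 exceeded that of Cry2 by 0.68 (log2), with p = 0.0216 by a two-sided exact permutation test over 924 arrangements of the 12 pools. After Benjamini-Hochberg adjustment over the 3 pairs this was 0.0649 and did not pass. Cry1 exceeded Bhlhe40 by 0.83 (exact permutation p = 0.0952, adjusted 0.143), and Cry2 exceeded Bhlhe40 by 0.15 (exact permutation p = 0.701, adjusted 0.701). Without CT46 the difference between Cry1 and Cry2 was 0.84 and without CT26 it was 0.80, and both then passed (adjusted exact permutation p = 0.0130 and 0.0390). These were the only 2 of 16 alternative settings in which it passed, and the adjusted exact permutation p ran up to 0.110. CT46 was the highest night pool of Cry2 and CT26 the highest day pool of Cry1, so leaving out either widens the difference. Over all 24 h of the curve, a cosine fitted to Cry1 minus Cry2 had an amplitude of 0.50 ± 0.17 (SE) and an R2 of 0.50 (one-sided permutation p = 0.0506, adjusted 0.152). The R2 was 0.20 for Cry1 minus Bhlhe40 (permutation p = 0.403, adjusted 0.604) and 0.000236 for Cry2 minus Bhlhe40 (permutation p = 0.999, adjusted 0.999).

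**Figure D3:**
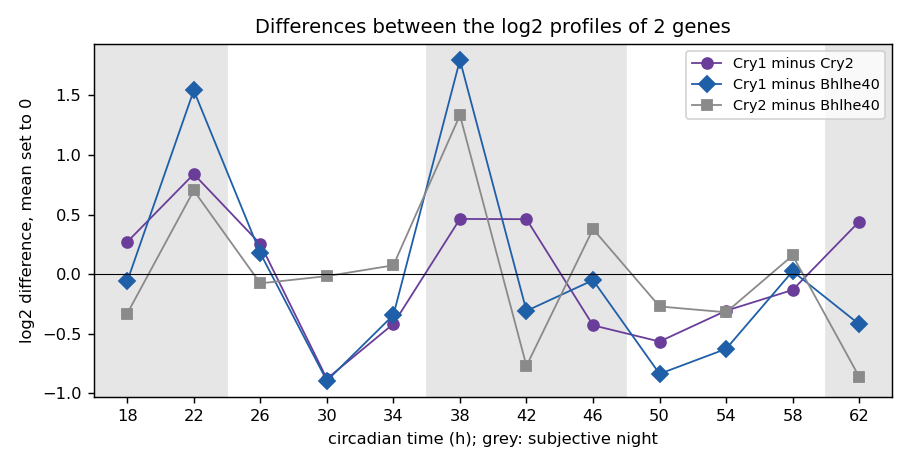
Differences between the log2 profiles of 2 genes (vertical axis, log2, mean set to 0) against circadian time in hours, with subjective night in grey. Cry1 minus Cry2 lies above 0 in 5 of 6 night pools, and both differences from Bhlhe40 have their largest values at CT38.

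The 24-h cosine asks for the time of the peak and the size of the swing. Cry1 had an amplitude (distance from the mean to the peak) of 0.64 ± 0.11 (log2, SE), a 2.43-fold swing from trough to peak. The fitted peak lay at CT18.4 ± 0.65 h. The curve accounted for 79.9% of the variation of Cry1 over pools, against a median of 18.7% over all probe sets kept. In the limma test Cry1 ranked 27th of 7453 by p with an adjusted p of 0.0604, just outside the 26 probe sets called (0.349%), so 0 of the 3 genes were called. At an unadjusted p below 0.05, Cry1 alone of the 3 passed, among 9.96% of all probe sets. The adjusted p of Cry1 ran from 0.0406 to 0.253 over 25 alternative settings and passed in 2 of them, without CT50 (0.0428) and with the filter at the 60th percentile (0.0406). Each cycle fitted alone gave a peak at CT17.5 and an amplitude of 0.65 ± 0.14 in the second cycle, and a peak at CT19.4 and an amplitude of 0.67 ± 0.15 in the first (n = 6 pools each, no test). Cry2 had an amplitude of 0.18 ± 0.14 (adjusted p = 0.821) and Bhlhe40 one of 0.16 ± 0.25 (adjusted p = 0.942), and their fitted peaks carried standard errors of 3.09 h and 5.73 h. Leaving out 1 pool moved both amplitudes: that of Cry2 was 0.069 without CT46 and 0.28 without CT30, and that of Bhlhe40 was 0.38 without CT22 and 0.30 without CT38. With the tissue marker means as covariates they were 0.30 ± 0.30 for Cry2 (adjusted p = 0.768) and 0.97 ± 0.61 for Bhlhe40 (adjusted p = 0.723).

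The remaining probe sets of Cry1 gave no measurable signal. On 94421_r_at the arrays read between -3.50 and 27.3, and on 161225_r_at between -8.75 and 9.61, all under the floor of 36.7. No rhythm could be read from either, so the Cry1 results rest on 94420_f_at alone. The suffix _f in its name marks probes that can match several similar sequences, and the sequences of the probes were not used here.

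Cry2 varied over pools about as much as the median probe set kept. The standard deviation of its log2 level (0.33) was at the 50.8th percentile. On 97724_at the intensity was 149.7 at CT18, 116 at CT22, 104 at CT26, 172 at CT30, 108 at CT34 and 129 at CT38. In the next cycle it was 139 at CT42, 221 at CT46, 110.1 at CT50, 110.1 at CT54, 113 at CT58 and 109 at CT62. CT46 was the highest pool and CT30 the next, while 6 pools lay between 104 and 113, all of subjective day except CT62. Of the pools above that range, only CT30 was of subjective day. CT46 and CT30 were also the pools least like the others over all probe sets. Values of Cry2 with CT46 or CT30 left out are given beside its night minus day and 24-h tests above. At hour 22 the second-cycle pool was 1.91-fold above the first, whereas the CT18 arrays differed 1.05-fold. The spread between pools 24 h apart was 0.34 (log2, SD) for Cry2, against 0.27 for Cry1, 0.69 for Bhlhe40 and a median of 0.30 over all probe sets kept.

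Bhlhe40 had the widest spread over pools of the 3 genes, and its pools 24 h apart differed most. On 104701_at the intensity was 512 at CT18, 194 at CT22, 298 at CT26, 475 at CT30, 279 at CT34 and 139.8 at CT38. In the next cycle it was 645 at CT42, 462 at CT46, 362 at CT50, 374 at CT54, 275 at CT58 and 539 at CT62. The highest pool, CT42, was 4.62-fold above the lowest, CT38, and the standard deviation of its log2 level over pools (0.65) was at the 86.3th percentile of all probe sets kept. Hour of the cycle accounted for 38.3% of the variation of Bhlhe40 over pools, against 86.3% for Cry1, 44.1% for Cry2 and a median of 49.6% over probe sets kept. The CT18 arrays read 546 and 480, a 1.14-fold difference, while the median probe set differed 1.14-fold between them.

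The cycles of Bhlhe40 parted mainly at 2 hours. At hour 14 the second-cycle pool CT62 read 539 and the first-cycle pool CT38 read 139.8, a 3.86-fold difference. At hour 22 CT46 read 462 and CT22 read 194, a 2.39-fold difference. At hour 10 CT58 and CT34 read 275 and 279. CT38 also held the highest sums of thymocyte (4267) and atrial (13488) markers of the first cycle, against 3053 and 7069 at CT62. At CT22 these sums were 2141 and 6411. CT42, the highest pool of Bhlhe40, held the lowest thymocyte sum (662) and the highest atrial sum (14561) of the series. With the skeletal muscle, thymocyte and atrial marker means as covariates, the second cycle minus the first was 0.54 ± 0.33 for Bhlhe40 (log2, SE; limma, adjusted p = 0.745). Over the 12 pools Bhlhe40 had a correlation of -0.17 with the thymocyte and -0.13 with the atrial marker mean.

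**Figure D4:**
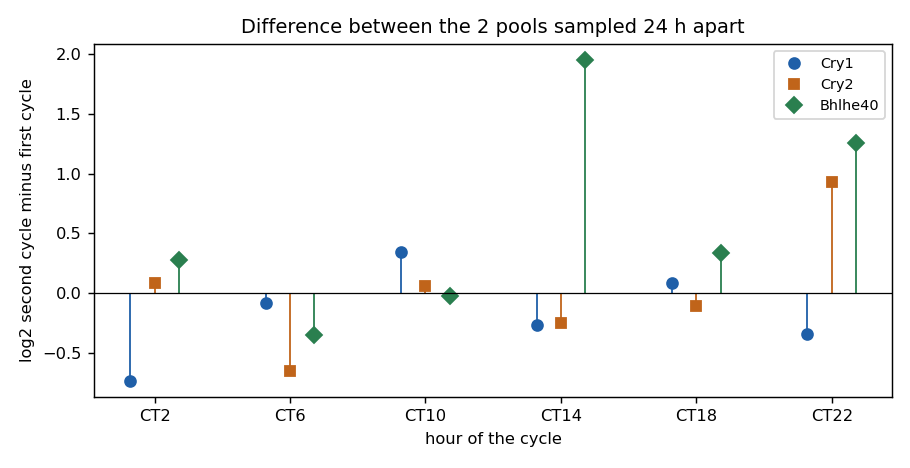
Log2 difference of the second-cycle pool minus the first-cycle pool (vertical axis) at each hour of the cycle for the 3 genes, with 1 pool on each side of a difference. Bhlhe40 differs most at CT14 (1.95) and CT22 (1.25), Cry2 at CT22 (0.93) and Cry1 at CT2 (-0.73).

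The comparison of the second cycle with the first asks whether levels moved as darkness went on. Bhlhe40 averaged 443 ± 134 in the second cycle and 316 ± 149 in the first (SD, n = 6 pools each), and the ranges of 275 to 645 and 139.8 to 512 overlapped. The second cycle minus the first was 0.58 ± 0.32 (log2, SE; limma, adjusted p = 0.692), and 0.32 ± 0.27 without CT38. With pools 24 h apart taken as 6 pairs it was 0.58 ± 0.28 (adjusted p = 0.649). For Cry1 it was -0.16 ± 0.15 (adjusted p = 0.810), with pools of 142 to 365 in the second cycle and 154 to 394 in the first. For Cry2 it was 0.01 ± 0.21 (adjusted p = 0.990), with pools of 109 to 221 in the second cycle and 104 to 172 in the first. By limma 0 of 7453 probe sets (0%) were called, with 562 (7.54%) at an unadjusted p below 0.05 and 0 called without moderation of the variance. Without CT42, 2 were called. Confidence intervals of 95% for the ratio of the cycles were 0.915 to 2.43 for Bhlhe40, 0.711 to 1.12 for Cry1 and 0.737 to 1.38 for Cry2.

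The shape of the rhythm was also compared between the cycles, and a 12-h component was sought. The difference in rhythm had an amplitude of 0.72 ± 0.44 (log2, SE) for Bhlhe40, 0.33 ± 0.21 for Cry1 and 0.44 ± 0.29 for Cry2. The limma adjusted p was 0.809 for Bhlhe40, 0.814 for Cry1 and 0.816 for Cry2. With 6 pools in a cycle, errors of this size leave room for large differences. Leaving out 1 pool or array moved the amplitude of Bhlhe40 to between 0.40 and 1.44. For this test 0 probe sets (0%) were called, with 520 (6.98%) at an unadjusted p below 0.05 and 0 called without moderation. The 12-h component of Bhlhe40 had an amplitude of 0.50 ± 0.22 (log2, SE; adjusted p = 0.908), that of Cry2 0.19 ± 0.14 (adjusted p = 0.939) and that of Cry1 0.04 ± 0.12 (adjusted p = 0.995). Here 0 probe sets (0%) were called, with 417 (5.60%) at an unadjusted p below 0.05 and 1 called without moderation. Without CT18, 3 were called.

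Among the measured clock genes, Cry1 peaked after the REV-ERB, PAR bZIP and Period genes with a called rhythm and before Arntl. Its peak came 4.96 h after that of the repressor Per2 (CT13.5 ± 0.44 h, combined SE of 0.78 h). It came 9.14 h after Nr1d2 (CT9.3 ± 0.22 h), a nuclear receptor that represses Arntl, and 9.98 h after Dbp (CT8.5 ± 0.59 h), a PAR bZIP activator that acts at D-boxes. Clock (CT19.9 ± 0.99 h), the partner of BMAL1, lay 1.5 h after Cry1 with a combined SE of 1.18 h, so the order of these neighbours is within their error. Arntl (CT22.1 ± 0.78 h) followed Cry1 by 3.66 h (combined SE of 1.01 h) and Nfil3 (CT21.3 ± 0.82 h), a repressor that acts at D-boxes, by 2.83 h (1.04 h). Of these, Nr1d2, Per2 and Dbp passed the 24-h test. Tef peaked at CT10.5 ± 0.71 h, and Nr1d1, with its peak at CT5.4 ± 0.66 h, lay nearly opposite Cry1. Per1 (CT10.8 ± 1.8 h), Rora (CT11.0 ± 6.4 h) and Per3 (CT19.9 ± 5.2 h) had fitted peaks with wide errors, as did Cry2 and Bhlhe40. The combined SEs treat the peaks as independent, although all were fitted to the same pools and arrays. Dbp lay at the floor in 7 pools, Per2 in 3, Nfil3 in 2, and Nr1d2 and Per1 in 1 each. The low parts of their curves were therefore clipped, and the effect on their fitted peaks and SEs was not tested. Cry1, Clock and Arntl lay above the floor in all pools.

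**Figure D5:**
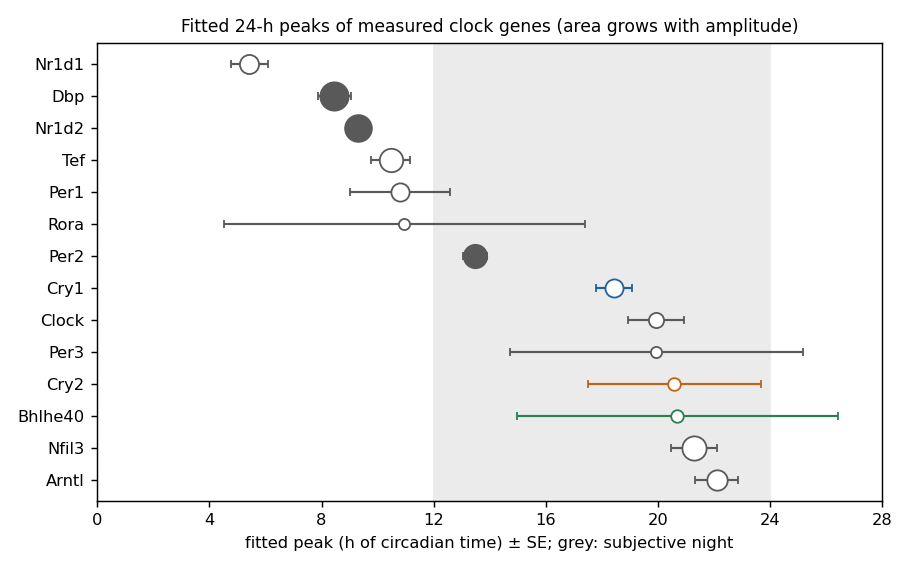
Fitted 24-h peak in hours of circadian time (horizontal axis, bars ± SE) of the measured clock genes, ordered by peak, with subjective night in grey. Filled points passed the 24-h test, open points did not, the area of a point grows with amplitude, and short bars lie behind the filled points. Cry1 (blue, 18.4) lies between Per2 (13.5) and Arntl (22.1), and Cry2 (orange) and Bhlhe40 (green) have wide bars.

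The rest of the pathway was counted for the 24-h test, in which 22 of all 5655 genes kept passed (0.389%). Of the CLOCK and BMAL1 activators 0 of 2 kept genes passed (lowest adjusted p 0.115 by limma, Arntl), of the Period genes 1 of 3 (Per2, 0.00897), of the REV-ERB and ROR receptors 1 of 3 (Nr1d2, 1.19e-05) and of the PAR bZIP genes with Nfil3 1 of 3 (Dbp, 0.0410). Among kinases and ubiquitin enzymes that set the stability of CRY and PER proteins 0 of 11 passed, with a median amplitude of 0.11 against 0.18 over all 5655 genes kept. The lowest adjusted p in that list was that of Usp2 (0.116), a deubiquitinase. Of 3 further genes listed as clock repressors only Timeless was kept (limma, adjusted p = 0.742), and it lay at the floor in 6 pools. Of the nuclear receptors that bind cryptochromes or answer to the clock, 1 of 2 kept genes passed (Ppara, a receptor of fatty acid metabolism, 0.0173).

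Lists tied to the other roles of these genes were also counted, and at the overall share of 0.389% a count of 0 sets none of them apart. Of 15 kept genes induced by low oxygen, 0 passed (lowest adjusted p 0.378, P4ha1, a collagen prolyl hydroxylase), and their median amplitude was 0.14. Of 11 kept helix-loop-helix relatives and E-box binding factors, 0 passed (lowest 0.140, Id1, a dominant-negative inhibitor of such factors), with a median amplitude of 0.17. Of 4 kept genes for repair of damaged DNA, a process served by the photolyases to which cryptochromes are related, 0 passed (lowest 0.189, Ercc1).

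The profiles most like each gene were ranked by Pearson correlation of log2 levels over the 12 pools, among 5655 genes, as a description. The points share pools and arrays, and the highest among so many values are high by selection. For Cry1 these were Farsb (0.89), a subunit of phenylalanyl-tRNA synthetase, Adam9 (0.87), a membrane metalloproteinase, Ercc1 (0.85), a subunit of a DNA repair nuclease, Atp5g2 (0.85), a subunit of ATP synthase, and Dock5 (0.85), an exchange factor for Rac. Their night minus day differences ran from 0.11 to 1.36 (log2) and none passed the limma test (lowest adjusted p 0.156). Ercc1 lay at the floor in 5 of 12 pools.

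The most opposite profile was that of Cebpb (-0.94), a transcription factor of fat and inflammatory cells. Its geometric mean was 1141 in subjective night and 1602 in subjective day, a night minus day difference of -0.49 ± 0.10 (log2, SE; limma, adjusted p = 0.0824). It was followed by Ptpn23 (-0.87), a phosphatase of endosomes, Gpam (-0.86), an enzyme of triglyceride synthesis, Nop53 (-0.85), a ribosome biogenesis factor, and Akt2 (-0.84), a kinase of insulin signalling. None of these passed the night minus day test.

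For Cry2 the most alike were Dazl (0.94), an RNA-binding protein of germ cells, Khdc1b (0.94), Itga3 (0.93), an integrin subunit, Sncg (0.93), a synuclein, and Tubgcp4 (0.92), a subunit of the gamma-tubulin complex. All 5 had their highest value at CT46 and their next at CT30, the same pools as Cry2. Itga3, for example, read 503 at CT46 and 486 at CT30 against a median of 279 over the pools.

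For Bhlhe40 they were Pja1 (0.89), a ubiquitin ligase, Nfyc (0.85), a subunit of a CCAAT-binding factor, Tnfaip3 (0.84), an inhibitor of NF-kB signalling, Socs3 (0.84), an inhibitor of cytokine signalling, and Wdr77 (0.83), a partner of an arginine methyltransferase. Pja1, Nfyc and Wdr77 were lowest at CT38, as Bhlhe40 was. Socs3 lay at the floor in 5 pools, CT22 and CT38 among them. Tnfaip3 lay at the floor in 2 pools, CT22 among them, and read 37.7 at CT38. With each other the 3 genes had correlations of 0.33 (Cry1 and Cry2), -0.03 (Cry1 and Bhlhe40) and 0.37 (Cry2 and Bhlhe40).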

How the data were processed

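Values were the linear intensities that the authors deposited. The software behind them was not given in the sources used here. With 2% of probe sets trimmed from both ends, each of the 13 arrays had a mean of 200.2, so the deposited scaling was kept. Of 12488 probe sets, 66 controls were left out. The platform annotation gave 1 gene for 10833, several for 396 and did not list 1193. Intensities under 36.7 (20th percentile of positive values) were set to that floor before log2, the CT18 arrays were averaged, and probe sets at or above the 40th percentile of means were kept. The number of arrays limits precision.

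limma 3.58.1 in R 4.3.3 (eBayes with trend, Benjamini-Hochberg, threshold 0.05) fitted a 24-h cosine, night minus day, second minus first cycle, its product with the cosine, and a 12-h component, the last 3 with lower terms as covariates. Fits were tested on simulated data. P-values rest on how far single pools lay from the fit, since no time point within a cycle was repeated with a pool known to be separate. Pairs of genes were compared with 100000 permutations or all arrangements in numpy 2.4.6. Alternatives changed the floor, filter, scaling, moderation, covariates and pools. The members and lists were chosen with earlier results of these data known. Named genes followed a written rule: all member probe sets, measured core clock genes, the called or lowest-p gene of each list, and the 5 profiles most like each member, with the 5 most opposite for Cry1. Replicate numbers pair no pools; pools 24 h apart were also fitted as pairs.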

Additional observations from a re-analysis of the deposited data

Results flagged for a closer look

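In groups of 6 pools, a pool was noted when its gap to the nearest pool took up most of the group's range (Dixon's test at 95%). Linear intensities were used, and log2 levels, on which the limma tests rest, were not tested this way. For normally distributed values chance flags about 1 group in 20, and 12 groups were tested. Cry2 was noted in 3 of them, Cry1 and Bhlhe40 in 0. The groups were not independent, since each pool fell in a night or day group and also in a cycle group. CT46 was noted for Cry2 in both of its groups. The CT46 pool of Cry2 read 221 against 149.7 for the next highest night pool, and against 139 for the next highest pool of the second cycle. The CT30 pool of Cry2 read 172 against 113 for the next highest day pool.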

How the results depend on the processing

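Of 560 recomputed values, 504 kept their direction and their side of the threshold, or stayed within 1.5 times for counts. The night minus day difference of Cry1 stayed positive in all 24 alternatives (0.87 to 1.02 when a pool or CT18 array was left out) and passed in 19. It did not pass with no filter on dim probe sets (0.93, adjusted p = 0.0605), without moderation of the variance (0.93, 0.0688), with tissue markers as covariates (0.96, 0.105), without CT38 and CT42 (0.90, 0.0885; chosen after seeing the data) or without CT18; the cause was not tested. The 24-h rhythm of Cry1 had an amplitude of 0.60 to 0.68 when 1 pool or array was left out. It passed with the filter at the 60th percentile (0.64, adjusted p = 0.0406), where fewer probe sets are tested, and without CT50 (0.0428). The 12-h component of Cry1 changed phase after quantile normalization (0.033), after centring arrays on their medians (0.018) and without CT50 (0.10), and was 0.031 to 0.11 with 1 pool or array left out.

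Night minus day called 1 probe set with no filter, 17 after quantile normalization, 0 without moderation, 0 with tissue markers, 6 without CT38 and CT42, and 3 to 18 with 1 pool or array left out (3 without CT18, 6 without CT34, CT46, CT54 or CT62, 18 without CT38). The 24-h rhythm called 4 with no filter, 7 after centring, 4 without moderation, 11 with tissue markers, 8 without CT38 and CT42, and 8 to 40 with 1 pool or array left out (8 without CT54, 9 without CT42, 10 without CT18 or CT34, 13 without CT62, 14 without CT58, 17 without CT46, 40 without CT30). The 12-h component called 1 with no filter, 1 without moderation and 0 to 3 with 1 left out (3 without CT18, 1 without CT34 or CT54), and second minus first cycle 0 to 2 (2 without CT42).

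With 1 pool or array left out, night minus day of Bhlhe40 was -0.066 to 0.38 and second minus first cycle of Cry2 -0.14 to 0.16, neither passing. Night minus day of Cry2 was 0.12 to 0.36, the 24-h amplitude of Cry2 0.069 to 0.28 and that of Bhlhe40 0.11 to 0.38, none passing. With 1 pool left out, the contrast of Cry1 over Cry2 was 0.57 to 0.84, that of Cry2 over Bhlhe40 -0.10 to 0.34, and the cosine of Cry2 minus Bhlhe40 had an amplitude of 0.012 to 0.29. By Spearman correlation, 2 of 5 profiles most like Cry1 were shared with the Pearson ranking, 0 for Cry2 and 1 for Bhlhe40. Replicate numbers pair no pools. With pools 24 h apart as pairs (chosen after seeing the data), second minus first cycle called 0 probe sets, and no call on the 3 genes changed. With no filter, many more probe sets are tested, some of which lie at the floor in all pools.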
